A study of Mus musculus with 18 samples.

Results

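Neurons release transmitter by fusing synaptic vesicles with the membrane of the nerve terminal. A coiled bundle of SNARE proteins, with the vesicle protein VAMP on one side and syntaxin and SNAP-25 on the other, pulls the membranes together, while Munc13 and RIM proteins prepare vesicles at the active zone, complexins hold the bundle, and synaptotagmins trigger fusion when calcium enters. NSF and its SNAP adaptors then take the bundle apart for reuse. Motor neurons (MNs) of the spinal cord use this machinery to release acetylcholine onto muscle. The 42 synaptic vesicle release genes described here were given as a list of symbols and cover calcium sensors (11), SNAREs (6), vesicle membrane proteins (5), synapsins (3), complexins (3), priming and active zone proteins (7), Rab3 GTPases with their effector rabphilin (4) and the disassembly proteins (3). All 42 were among the 27179 genes of the tables counted per gene, and 41 had at least 1 of the 35729 transcripts of the table counted per transcript, the exception being Syt5.

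The series holds 18 RNA-Seq samples of cells sorted as MNs from mouse spinal cord. At postnatal day 8 (p8) there were 3 brachial, 3 thoracic and 3 lumbar samples labelled Wildtype, of cells with tdTomato from the Ai9 reporter, which is switched on wherever Cre has been made from the Chat locus. At the embryonic stage e12.5 there were 3 brachial samples labelled Hoxc8 MNΔ, in which Olig2Cre deletes a floxed Hoxc8 from MN progenitors onward, and 6 brachial control samples, labelled Wildtype, which for the mutants are Hoxc8 fl/fl mice by the study's methods. Embryonic cells were sorted by the Mnx1-GFP reporter. By the study's methods several cords were pooled for each replicate, and both reporters also mark small populations that are not MNs. Which of the 6 controls stand in which table is not stated.

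The deposited tables give 1 level per gene, the Base mean, which is the authors' mean of read counts divided by size factors over all samples of a table. Values of single samples are not listed, so every level below is without an SD, an n or a test, and no difference is shown to exceed the spread between replicates. The p8 pool is the level over p8 brachial, thoracic and lumbar samples, and its values were the same in all 3 regional tables. The mixed pool is the level over p8 brachial and e12.5 control samples. The e12.5 pool is the level over Hoxc8 MNΔ and control samples of e12.5. Fold changes of the tables are the authors' own comparisons and were not used, so regions and genotypes were not analysed here.

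A release gene was called higher or lower when its p8 level, relative to the other pool, lay past a fold of 2 after the median gene had been set to 0, with a pseudocount of 1 and a mean level of at least 10. The p8 brachial samples are part of the mixed pool, so a difference between e12.5 and p8 enters that comparison only in part. For a gene with similar p8 levels in all regions this bounds how far the ratio can rise, but not how far it can fall. Counts of higher and lower genes against the mixed pool are therefore not on equal terms. Thoracic and lumbar samples are in the p8 pool alone, embryonic cells were sorted by another reporter, and the e12.5 pool includes Hoxc8 MNΔ samples. By the study's methods, the brachial segments dissected for the stage comparison and for the Hoxc8 comparison also differed. Stage, region, segments, reporter and genotype therefore cannot be told apart in these ratios. Before centring, the median gene had a log2 ratio of -0.82 for the p8 pool over the mixed pool and of -1.26 for the p8 pool over the e12.5 pool among genes with 1 transcript. Log2 ratios below are relative to that median.

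The depth behind these levels was uneven. In the p8 pool, 9 values were found that a gene with a single read in 1 sample can take, from 0.0405 to 0.693 normalised reads, a 17.1-fold range, with 3 of them at 0.218, 0.488 and 0.693. The mixed pool showed 8 such values from 0.0651 to 0.115, and the e12.5 pool 6 from 0.142 to 0.183. The larger this value, the shallower the sample relative to the others, and the smallest gives the most reads that can lie behind a low level.

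The labelled cell type was checked with marker lists. Mnx1, an MN homeodomain gene, had 0.696 normalised reads in the p8 pool, against 2338 in the mixed pool and 3970 in the e12.5 pool. The study used another reporter at p8 because expression of Mnx1-GFP is low after birth, but by antibody staining it reported Mnx1 and Isl1 in p8 brachial MNs. Isl1 had 2.67 normalised reads in the p8 pool, against 313 in the mixed pool and 520 in the e12.5 pool. The cause of these low p8 levels was not tested. Chat, which makes acetylcholine, had 14.1 in the p8 pool, against 147 in the mixed pool and 253 in the e12.5 pool. Of 10 MN genes past the filter, 8 were lower in the p8 pool than in the mixed pool and 1 was higher. The 20 oligodendrocyte genes held 44.95% of the p8 pool's total level, against 24.3% of that of the mixed pool. All 20 (100%) were higher in the p8 pool, against 16.3% of all genes tested. The e12.5 pool held markers of inhibitory interneurons, with 10167 normalised reads of Pax2, which was at 0 in the p8 pool. By these lists none of the pools can be read as MNs alone.

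Most release genes were lower in the p8 pool. Of the 42, 41 passed the filter on low levels against the mixed pool, and 26 of them (63.4%) were lower, against 25.2% of the 14879 genes tested. Only 4 were higher (9.76%), against 16.3% of all genes tested, and 11 lay within the fold. Their median log2 ratio was -2.30, and the 10th percentile of all genes was -2.44. The 15 genes of the neuron list had a median of -3.34. Of these, 12 (80.0%) were lower and 1, Nefh, was higher (6.67%), against 25.2% and 16.3% of all genes tested. The 7 inhibitory interneuron genes, all lower, had a median of -8.43. In bulk samples fewer neurons and less RNA per neuron cannot be told apart, and the part of cell makeup in the lower release genes was not tested.

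**Figure D1:**
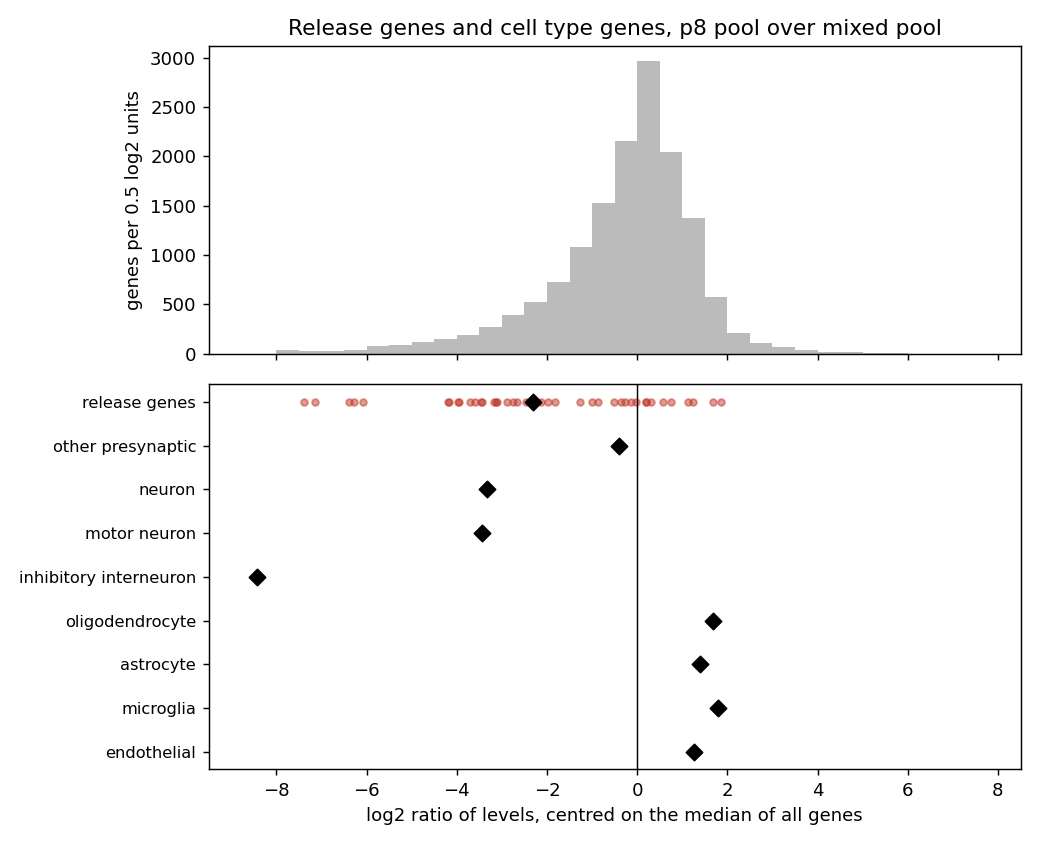
The upper panel counts all genes past the filter by their centred log2 ratio of the p8 pool over the mixed pool, and the lower panel shows each release gene (red points) and the median of each gene list (black diamonds). The median of the release genes lies at -2.30, between the neuron list at -3.34 and the other presynaptic genes at -0.40, while the oligodendrocyte list lies at 1.68.

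The promoters of 4 release genes are shown because they hold the motifs marked below, and the genes were chosen for these matches. Of the 42 genes, 32 had a promoter sequence in RefSeq (GRCm38.p6), each a window of 300 bases from 250 before the gene start to 50 after it. The windows were searched on both strands for 13 short motifs, and the motifs marked here were picked after their matches had been seen. Capitals mark the left and right arms of the element bound by REST, a repressor of neuronal genes outside neurons (TTCAGCACC and GGACAGCGC), and the letters bound by NRF1 (CGCATGCGC), in either orientation. The Syn1 window is chrX:20920869-20921168 on the minus strand, that of Unc13a is chr8:71671708-71672007 on the minus strand, that of Bsn is chr9:108190334-108190633 on the minus strand and that of Snap23 is chr2:120567421-120567720 on the plus strand.
Syn1: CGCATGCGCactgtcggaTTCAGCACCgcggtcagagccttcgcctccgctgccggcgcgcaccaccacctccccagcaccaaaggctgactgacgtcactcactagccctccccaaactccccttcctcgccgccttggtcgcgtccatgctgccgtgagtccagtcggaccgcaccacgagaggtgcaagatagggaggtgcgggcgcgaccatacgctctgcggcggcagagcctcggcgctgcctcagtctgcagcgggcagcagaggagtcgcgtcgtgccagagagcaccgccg
Unc13a: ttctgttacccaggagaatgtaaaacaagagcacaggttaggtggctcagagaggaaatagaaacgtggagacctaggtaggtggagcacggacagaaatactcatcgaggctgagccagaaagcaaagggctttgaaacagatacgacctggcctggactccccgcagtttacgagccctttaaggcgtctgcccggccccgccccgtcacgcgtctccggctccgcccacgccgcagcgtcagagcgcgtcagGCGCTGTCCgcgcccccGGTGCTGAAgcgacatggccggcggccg
Bsn: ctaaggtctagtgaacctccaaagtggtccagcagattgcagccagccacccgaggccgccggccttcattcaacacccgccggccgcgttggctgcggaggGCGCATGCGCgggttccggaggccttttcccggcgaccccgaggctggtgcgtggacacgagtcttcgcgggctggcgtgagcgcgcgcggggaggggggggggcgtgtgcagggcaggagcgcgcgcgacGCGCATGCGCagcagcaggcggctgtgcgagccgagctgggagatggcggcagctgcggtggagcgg
Snap23: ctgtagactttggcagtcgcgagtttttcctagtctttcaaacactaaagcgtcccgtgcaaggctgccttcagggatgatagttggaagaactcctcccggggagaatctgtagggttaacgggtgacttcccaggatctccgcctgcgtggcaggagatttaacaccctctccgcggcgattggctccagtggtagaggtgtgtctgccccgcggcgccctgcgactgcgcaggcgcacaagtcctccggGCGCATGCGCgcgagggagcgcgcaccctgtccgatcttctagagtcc

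The left REST arm stood in 0.371% of all 32851 promoter windows and, among release genes, in those of Syn1 and Unc13a. In Syn1 it began at base -232 from the start. In Unc13a both arms lay on the opposite strand after the start, the left arm from base 23 and the right arm from base 6. The right arm stood in 0.405% of windows, and the left arm followed, after a gap of 2 bases, by a right arm shortened to GGACAGC stood in no window of a release gene. The NRF1 letters stood in 1.75% of windows and in those of Bsn, Snap23 and Syn1. The CRE letters TGACGTCA stood in 1.79% of windows and in those of Napa and Syn1, and the TATA letters TATAAA in 13.6% and in those of Rab3b and Sv2b. A match describes the letters and no binding was measured.

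Calcium sensors were lower as a group, with 1 exception and 1 gene that stayed near the median. Of 11, 9 (81.8%) were lower than in the mixed pool, against 25.2% of all genes tested, and 1 was higher (9.09%), against 16.3%. The 1 gene within the fold was Syt11, which is listed in this group though it does not bind calcium. Syt1, the fast sensor of forebrain synapses, had 88.2 normalised reads in the p8 pool, against 2434 in the mixed pool, a log2 ratio of -3.95. Syt2, the fast sensor of hindbrain, spinal and neuromuscular terminals, had 13.0 in the p8 pool, against 108 in the mixed pool and 266 in the e12.5 pool. The p8 level of Syt2 was thus the smaller of this pair, though its log2 ratio to the mixed pool of -2.14 was less negative than that of Syt1.

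Syt7, a slow sensor for asynchronous release and facilitation, was the calcium sensor furthest below the median, with 10.4 normalised reads in the p8 pool, against 1566 in the mixed pool, a log2 ratio of -6.28. Syt3, which also binds calcium tightly, had 17.5 in the p8 pool, against 353 in the mixed pool. Syt5 had 20.7 in the p8 pool, against 464 in the mixed pool. Syt6 had 12.2 in the p8 pool, against 425 in the mixed pool. These 3 genes lay between -3.44 and -4.19 on the log2 scale. Syt4, a synaptotagmin of dense core vesicles and postsynaptic membranes, had 54.8 in the p8 pool, against 1092 in the mixed pool and 2627 in the e12.5 pool. Its log2 ratios of -3.47 and -4.30 had the same direction against both pools.

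The Doc2 proteins are soluble calcium sensors linked to spontaneous release. Doc2a had 50.8 normalised reads in the p8 pool, against 220 in the mixed pool and 368 in the e12.5 pool. Doc2b had 1.58 in the p8 pool, against 70.6 in the mixed pool and 164 in the e12.5 pool. The p8 level of Doc2b rests on at most 39 reads over all p8 samples, and its log2 ratio of -3.97 moved to -2.04 with a pseudocount of 10.

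Syt9 went the other way. This calcium sensor of endocrine cells and some brain neurons had 86.5 normalised reads in the p8 pool, against 42.002 in the mixed pool and 64.8 in the e12.5 pool. Its log2 ratio was 1.85 over the mixed pool and 1.67 over the e12.5 pool, and it was the release gene with the largest ratio over the mixed pool. Without the filter on low levels its ratio over the e12.5 pool was 0.63. Syt11, which does not bind calcium and limits membrane uptake, had 6934 in the p8 pool, against 8271 in the mixed pool and 8786 in the e12.5 pool. Per kb of exon it made up 94.0% of the summed levels of this list in the p8 pool, against 55.3% in the mixed pool, which is not a share of calcium sensing. Its log2 ratios of 0.57 and 0.92 lay within the fold, and at a mean level of at least 100 the ratio over the e12.5 pool was 1.12, past it.

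**Figure D2:**
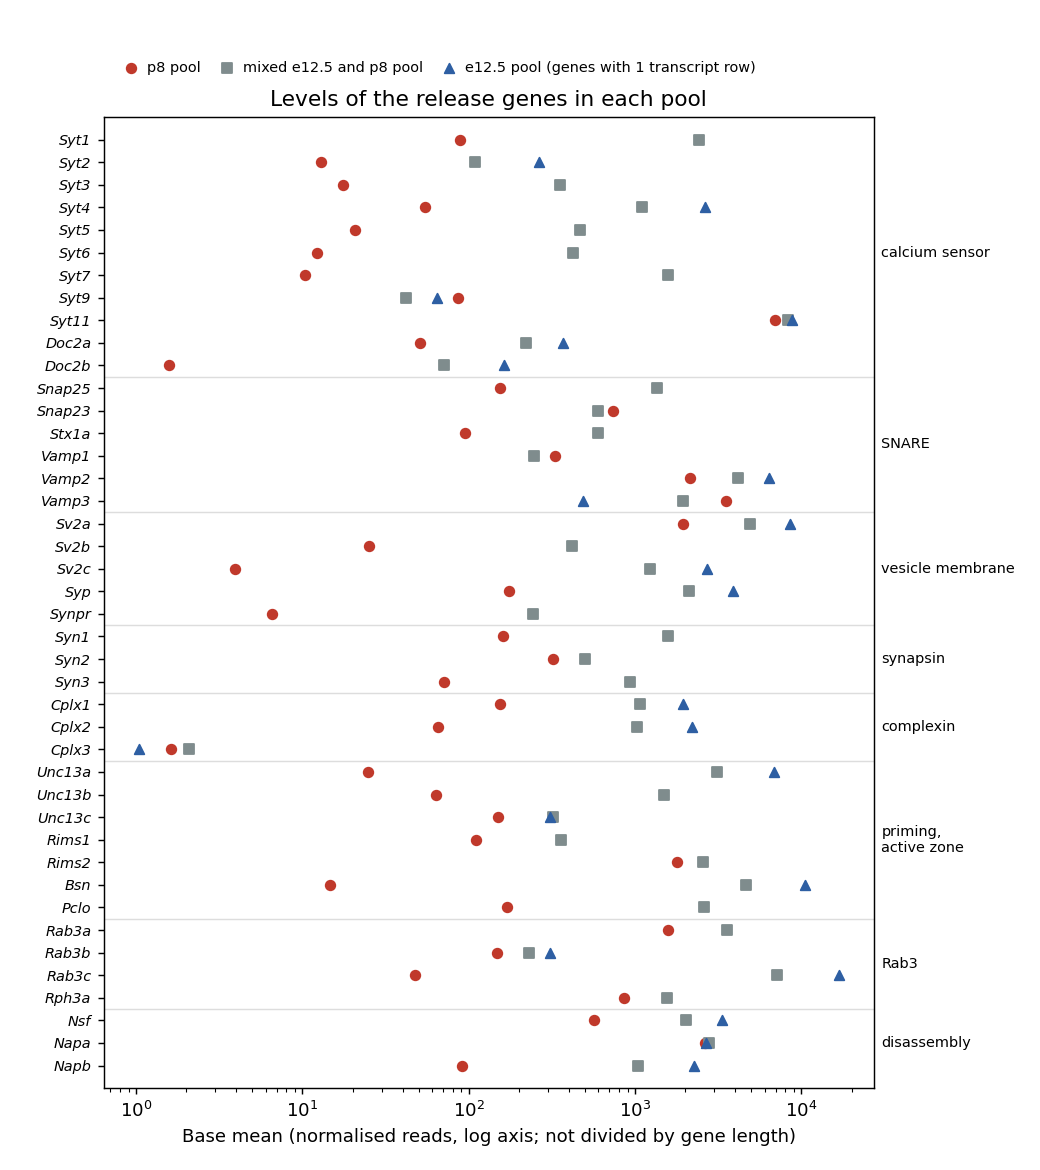
Base means of the 42 release genes (log axis, not divided by length) in the p8 pool (red circles), the mixed pool (grey squares) and, for genes with 1 transcript row, the e12.5 pool (blue triangles), grouped by role. Red lies left of grey for most genes, and to its right for Syt9, Snap23, Vamp1 and Vamp3.

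Of the 6 SNAREs, 2 (Snap25 and Stx1a) were lower, against 25.2% of all genes tested, 3 (Snap23, Vamp1 and Vamp3) were higher, against 16.3%, and Vamp2 lay within the fold. Snap25, the neuronal SNARE of the plasma membrane, had 155 normalised reads in the p8 pool, against 1360 in the mixed pool, a log2 ratio of -2.30. Stx1a, the syntaxin partner of Snap25, had 94.5 in the p8 pool, against 600.3 in the mixed pool, a log2 ratio of -1.83. Snap23, the widely expressed relative of Snap25, had 734 in the p8 pool, against 594 in the mixed pool, a log2 ratio of 1.13.

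Vamp2, the main vesicle SNARE of brain synapses, had 2138 normalised reads in the p8 pool, against 4172 in the mixed pool and 6410 in the e12.5 pool. Its log2 ratios of -0.14 and -0.32 lay within the fold, but without the filter on low levels it was lower over the e12.5 pool, at -1.36. Vamp1, the vesicle SNARE prominent at spinal and neuromuscular terminals, had 329 in the p8 pool, against 247 in the mixed pool, a log2 ratio of 1.24. Vamp3, or cellubrevin, a SNARE of recycling endosomes in many cell types, had 3507 in the p8 pool, against 1948 in the mixed pool and 487 in the e12.5 pool. Vamp3 had log2 ratios of 1.67 and 4.10, and the raw p8 level was the highest of its 3 pools.

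The lists of other cell types moved with the higher SNAREs. Over the mixed pool the p8 pool had a median log2 ratio of 1.68 for the 20 oligodendrocyte genes (20 higher), 1.80 for 12 microglia genes (10 higher), 1.39 for 10 astrocyte genes (6 higher) and 1.27 for 11 endothelial genes (8 higher). Of all genes tested, 16.3% were higher. The part of these cell types in the levels of Snap23, Vamp1, Vamp3 and Syt9 was not tested. With levels scaled to the summed level of a pool in place of the median, Snap23 at 0.61 and Vamp1 at 0.72 fell within the fold, while Vamp3 and Syt9 stayed past it.

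Of 5 vesicle membrane genes, 4 (80.0%) were lower, against 25.2% of all genes tested, and Sv2a lay within the fold. Syp, or synaptophysin, an abundant protein of the vesicle membrane, had 174 normalised reads in the p8 pool, against 2098 in the mixed pool and 3886 in the e12.5 pool. Its relative Synpr had 6.58 in the p8 pool, against 242 in the mixed pool, a log2 ratio of -4.18. SV2 proteins are vesicle glycoproteins needed for normal calcium-triggered release. Sv2a had 1945 in the p8 pool, against 4930 in the mixed pool and 8530 in the e12.5 pool, with log2 ratios of -0.52 and -0.87. It passed the fold as lower over the mixed pool with levels scaled to the summed level of a pool (-1.04), and over the e12.5 pool without the filter on low levels (-1.91).

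Sv2b had 25.1 normalised reads in the p8 pool, against 417 in the mixed pool, a log2 ratio of -3.18. Sv2c had 3.91 in the p8 pool, against 1233 in the mixed pool and 2716 in the e12.5 pool. Sv2c was among the furthest from the median of all release genes, with log2 ratios of -7.15 and -7.85, and its p8 level rests on at most 96 reads. With a pseudocount of 10 its ratios were -5.72 and -6.46.

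Synapsins tether vesicles into the reserve pool. Syn1 had 161 normalised reads in the p8 pool, against 1574 in the mixed pool, a log2 ratio of -2.46. Syn3 had 70.6 in the p8 pool, against 937 in the mixed pool, a log2 ratio of -2.89. Syn2 had 319 in the p8 pool, against 498 in the mixed pool, and at 0.18 it stayed near the median gene. The Syn1 window holds the left REST arm, the NRF1 letters and the CRE letters. The NRF1 letters also stood in the windows of Bsn, which was lower, and Snap23, which was higher. The CRE letters also stood in that of Napa, which lay within the fold over the mixed pool. A link of these letters to the levels was not tested.

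Complexins clamp the SNARE bundle and promote fast fusion. Cplx1 had 154 normalised reads in the p8 pool, against 1074 in the mixed pool and 1931 in the e12.5 pool. Cplx2 had 65.7 in the p8 pool, against 1027 in the mixed pool and 2183 in the e12.5 pool. Both were lower against both pools, with log2 ratios of -1.97 and -2.38 for Cplx1 and of -3.12 and -3.77 for Cplx2. Cplx3, a complexin of retinal ribbon synapses, had 1.63 in the p8 pool, against 2.07 in the mixed pool and 1.04 in the e12.5 pool, and was the 1 release gene under the filter.

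Priming and active zone genes ranged from the strongest decrease of all release genes to levels near the median gene. Bsn, which encodes the scaffold Bassoon, had 14.6 normalised reads in the p8 pool, against 4627 in the mixed pool and 10495 in the e12.5 pool. Its log2 ratios of -7.39 and -8.13 were the lowest of all release genes in each comparison, a p8 level 167-fold lower than in the mixed pool relative to the median gene. Pclo, which encodes the related and larger scaffold Piccolo, had 170 in the p8 pool, against 2597 in the mixed pool, a log2 ratio of -3.10. Unc13a, or Munc13-1, the main priming factor of many synapses, had 24.9 in the p8 pool, against 3085 in the mixed pool and 6796 in the e12.5 pool. Its log2 ratios were -6.07 and -6.78.

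Unc13b, or Munc13-2, had 63.5 normalised reads in the p8 pool, against 1487 in the mixed pool, a log2 ratio of -3.70. Unc13c, or Munc13-3, known from cerebellar granule cells, had 150 in the p8 pool, against 320 in the mixed pool and 306 in the e12.5 pool, within the fold in both comparisons. RIM proteins recruit calcium channels and vesicles to the active zone. Rims1 had 110 in the p8 pool, against 358 in the mixed pool, and at -0.86 it was the gene nearest to the fold of 2 from within. It passed the fold at -1.38 with levels scaled to the summed level of a pool and at -1.30 without the filter. Rims2 had 1787 in the p8 pool, against 2577 in the mixed pool, a log2 ratio of 0.30. Per kb, Rims2 made up 79.1% of the priming and active zone levels of the p8 pool, against 23.6% of the mixed pool.

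Rab3 GTPases sit on vesicles and link them to RIM and rabphilin. Rab3a, the main form of brain synapses, had 1577 normalised reads in the p8 pool, against 3582 in the mixed pool, a log2 ratio of -0.36. Rab3b had 148 in the p8 pool, against 229 in the mixed pool and 306 in the e12.5 pool. Rab3c had 47.2 in the p8 pool, against 7131 in the mixed pool and 16726 in the e12.5 pool. Rab3c had the highest e12.5 level of the release genes with 1 transcript, and log2 ratios of -6.38 and -7.18, while Rab3a and Rab3b lay within the fold. Rph3a, or rabphilin, a calcium-binding effector of Rab3, had 854 in the p8 pool, against 1551 in the mixed pool, a log2 ratio of -0.03.

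The disassembly genes split between the neuronal and the general adaptor. Nsf, the ATPase, had 563 normalised reads in the p8 pool, against 2010 in the mixed pool and 3344 in the e12.5 pool. At -1.01 over the mixed pool it was the gene just past the fold of 2, and at a mean level of at least 100 its ratio was -0.93. Napb, the adaptor enriched in brain, had 91.6 in the p8 pool, against 1044 in the mixed pool and 2272 in the e12.5 pool, with log2 ratios of -2.67 and -3.36. Napa, the general adaptor, had 2633 in the p8 pool, against 2789 in the mixed pool and 2685 in the e12.5 pool. Napa lay within the fold over the mixed pool at 0.74 and past it over the e12.5 pool at 1.23, which became 0.19 without the filter on low levels.

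The e12.5 pool shares no sample with the p8 pool, but its table was counted per transcript. For genes with 1 transcript in that table and at least 50 normalised reads in the mixed pool, the median log2 ratio of the e12.5 pool over the mixed pool was 0.46, against -5.98 for genes with 2 transcripts and -6.94 for genes with 3 or more. For 79.5% of the genes with 2 transcripts the summed e12.5 level was under 0.1 of the mixed level, against 7.99% of those with 1. How the counting treated reads shared by transcripts is not given in the sources used here, and the cause was not tested. The levels of the 19 release genes with several transcripts are therefore not read in the e12.5 pool. Over all symbols, which includes them, 20 of 39 release genes past the filter were lower in the p8 pool, against 38.5% of 14445 genes, and 13 were higher, against 41.8%.

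Among the 22 release genes with 1 transcript, a limit chosen after the levels had been seen, 21 passed the filter. Of these, 13 (61.9%) were lower in the p8 pool than in the e12.5 pool, against 32.2% of the 9724 such genes tested, and 3 were higher (14.3%), against 33.7%. The 13 lower genes were also lower against the mixed pool, and Syt9 and Vamp3 were higher in both. The 2 comparisons share the p8 pool, so they are given side by side and do not check each other. The median log2 ratio of the 21 genes was -2.38.

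**Figure D3:**
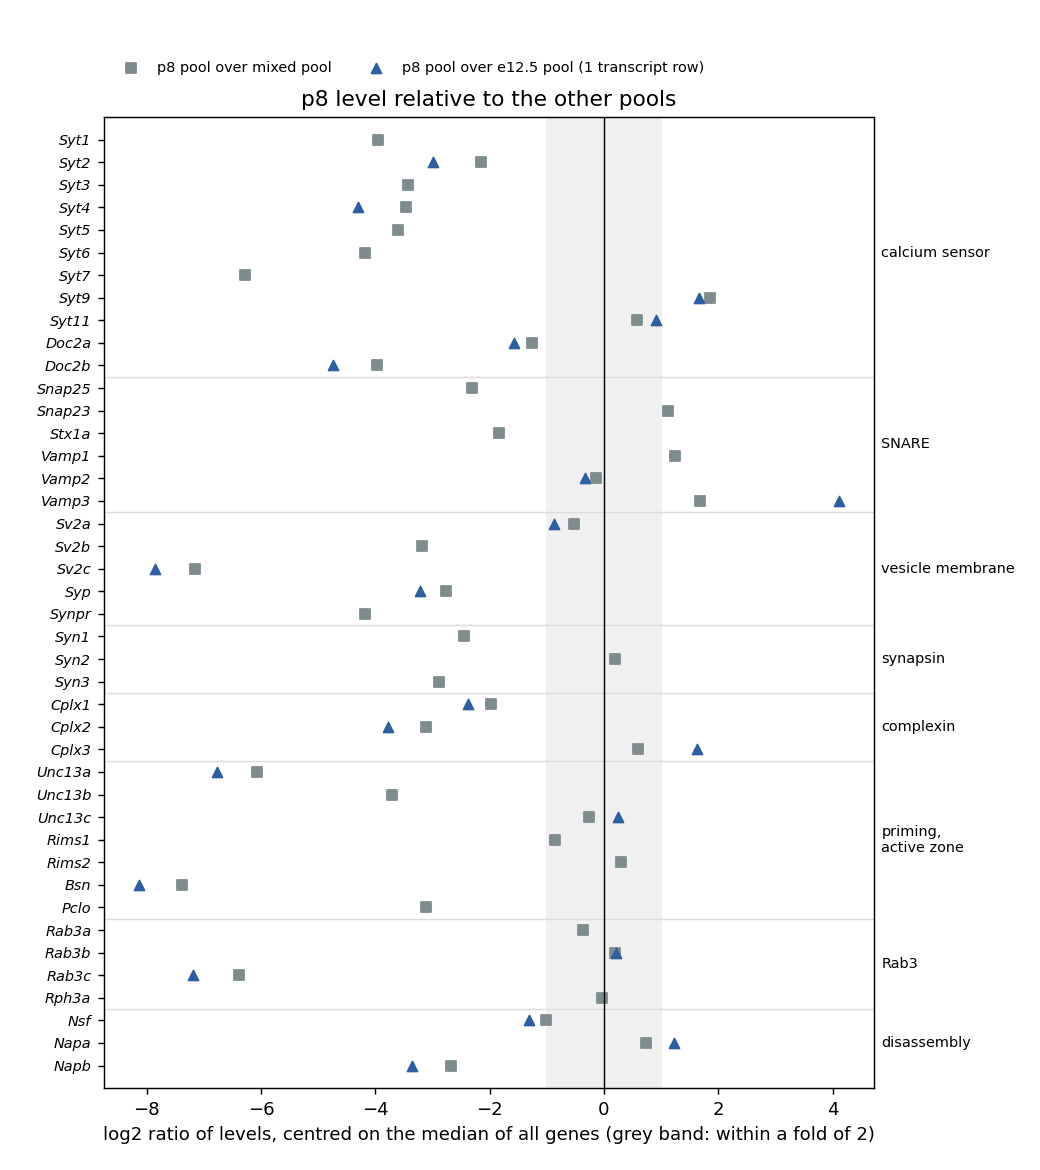
Log2 ratio of the p8 level of each release gene over the mixed pool (grey squares) and, for genes with 1 transcript row, over the e12.5 pool (blue triangles), centred on the median of all genes. Bsn, Sv2c, Rab3c, Syt7 and Unc13a lie more than 32-fold below the mixed pool relative to the median gene, and 11 genes past the filter lie in the grey band within a fold of 2.

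The ratio of 2 genes within a pool does not depend on the scaling between tables. Over 18 pairs of related genes, levels were divided by the exon length of GENCODE M21. From the mixed pool to the p8 pool the ratio of the first gene to the second was over 2-fold higher in 10 pairs, over 2-fold lower in 6 and within 2-fold in 2. The gene with the higher level per kb was another one in the p8 pool than in the mixed pool for 5 pairs, of which 4 (Vamp3/Vamp2, Snap23/Snap25, Unc13b/Unc13a and Pclo/Bsn) also switched when levels were not divided by length or were divided by the longest transcript. The switch of Syt4/Syt1 was seen per kb of all exons alone, that of Syn1/Syn2 under both alternatives to it, and that of Rab3c/Rab3a without division by length alone.

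For the fast calcium sensors, Syt2 stood at 0.161 of Syt1 in the p8 pool, against 0.0486 in the mixed pool, a 3.30-fold higher ratio, with Syt1 above Syt2 in both. For the vesicle SNAREs, Vamp1 stood at 0.0577 of Vamp2 in the p8 pool, against 0.0222 in the mixed pool, a 2.60-fold higher ratio. In both pairs the form known from spinal and neuromuscular terminals had a larger share in the p8 pool and was the minor one in both pools. Syt2 was itself lower over the mixed pool, at -2.14, with Syt1 at -3.95. Vamp1 was no longer called higher with levels scaled to the summed level (0.72) or without the filter (0.80). The part of cell makeup in these ratios was not tested. Vamp3 over Vamp2 was 2.16 in the p8 pool, against 0.616 in the mixed pool and 0.1002 in the e12.5 pool, so that the higher gene was Vamp3 in the p8 pool alone. Snap23 over Snap25 was 7.498 in the p8 pool, against 0.691 in the mixed pool.

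In the next pairs the second gene was far lower in the p8 pool. Of the first genes, Pclo and Unc13b were lower to a lesser degree, and Syt11 and Napa lay within the fold over the mixed pool. Pclo over Bsn was 8.23 in the p8 pool, against 0.398 in the mixed pool, a 20.7-fold higher ratio. Syt11 over Syt1 was 126 in the p8 pool, against 5.44 in the mixed pool, a 23.1-fold higher ratio. Napa over Napb was 53.6 in the p8 pool, against 4.98 in the mixed pool and 2.20 in the e12.5 pool. Unc13b over Unc13a was 1.42 in the p8 pool, against 0.268 in the mixed pool, so that Unc13a was the higher gene in the mixed pool alone.

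In the other direction, Sv2c over Sv2a was 0.00096 in the p8 pool, against 0.120 in the mixed pool and 0.152 in the e12.5 pool. Rab3c over Rab3a was 0.00553 in the p8 pool, against 0.368 in the mixed pool, and Doc2b over Doc2a was 0.0200 in the p8 pool, against 0.206 in the mixed pool and 0.286 in the e12.5 pool. Syn1 over Syn2 was 1.08 in the p8 pool, against 6.74 in the mixed pool. Not divided by length, Syn1 over Syn2 was 0.504 in the p8 pool, against 3.16 in the mixed pool, and with the longest transcript it was 0.596 in the p8 pool, against 3.73 in the mixed pool. Sv2b over Sv2a was 0.00713 in the p8 pool, against 0.0468 in the mixed pool, and Synpr over Syp was 0.0209 in the p8 pool, against 0.0637 in the mixed pool.

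The remaining pairs moved least. Cplx1 over Cplx2 was 5.27 in the p8 pool, against 2.36 in the mixed pool and 1.99 in the e12.5 pool, and Rims2 over Rims1 was 11.5 in the p8 pool, against 5.10 in the mixed pool. Rab3b over Rab3a was 0.0593 in the p8 pool, against 0.0404 in the mixed pool. Syt4 over Syt1 was 1.33 in the p8 pool, against 0.961 in the mixed pool. In the 5 pairs that also had a value in the e12.5 pool, the p8 ratio differed from it in the same direction as from the mixed pool. Both comparisons share the p8 pool, and the mixed pool holds p8 brachial and e12.5 control samples, so these directions do not check each other.

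**Figure D4:**
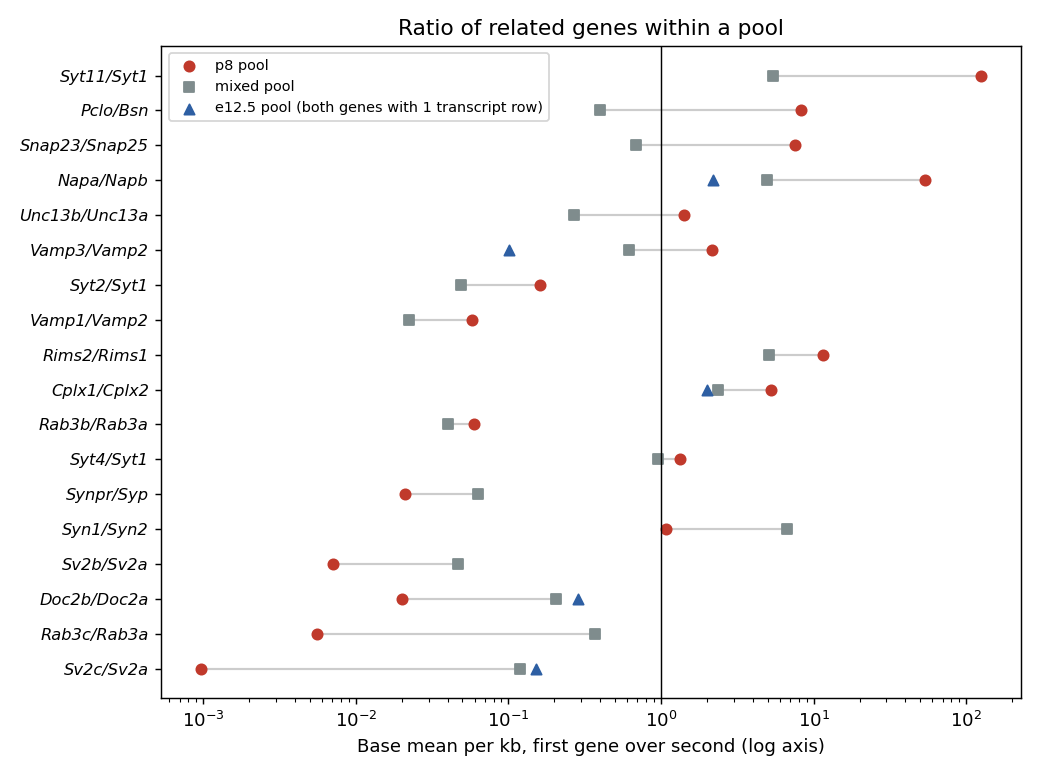
Ratio of the levels per kb of 18 gene pairs (first over second, log axis) in the p8 pool (red circles), the mixed pool (grey squares) and, where both genes have 1 transcript row, the e12.5 pool (blue triangles), ordered by the change between the p8 and the mixed pool. Syt11/Syt1 at the top has the largest gain, 23.1-fold, and Sv2c/Sv2a at the bottom the largest loss.

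Among all genes with an exon length, the release genes had a median percentile of 57.7 per kb in the p8 pool, against 81.1 in the mixed pool. Those above the 90th percentile numbered 6 in the p8 pool, against 10 in the mixed pool. Those under the 50th numbered 15 in the p8 pool, against 4 in the mixed pool. Syt11, Vamp3, Rab3a, Napa, Vamp2 and Sv2a were the 6 at the top of the p8 pool, with Syt11 at the percentile 98.6.

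Other presynaptic genes moved less as a list. Of 57, 54 passed the filter against the mixed pool, and 23 (42.6%) were lower, against 25.2% of all genes tested. The 9 higher genes made up 16.7%, near the 16.3% of all genes tested, and the median log2 ratio of the list was -0.40. Among the most abundant past the fold in both comparisons were Snap47, Svop, Snapin, Ppfia3 and Rab5a. Snap47, a SNAP-25 relative, had 835 normalised reads in the p8 pool, against 3872 in the mixed pool and 6942 in the e12.5 pool. Svop, a vesicle protein related to SV2, had 58.0 in the p8 pool, against 2557 in the mixed pool and 5028 in the e12.5 pool.

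Ppfia3, a liprin scaffold of the active zone, had 337 normalised reads in the p8 pool, against 1663 in the mixed pool and 2818 in the e12.5 pool. The other two were higher relative to the median gene. Snapin, a SNARE-binding protein of lysosomes and vesicles, had 3060 in the p8 pool, against 2204 in the mixed pool and 670.1 in the e12.5 pool. Rab5a, an early endosome GTPase, had 1979 in the p8 pool, against 1675 in the mixed pool and 1123 in the e12.5 pool.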

How the data were processed

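RNA of cells sorted as MNs was measured by RNA-Seq in 18 samples. Per the study's methods and notes, the authors aligned reads to mm10 with HISAT, used featureCounts for read counts and tested groups by DESeq2. Versions are not given in the sources used here. The Base mean in the 5 deposited tables is a signal that the authors made as the mean of read counts over size factors across the samples of a table. The tables also hold the authors' log2 fold changes, standard errors, Wald statistics and p-values, which were not used. Columns of per-sample values not mapped to a sample numbered 0.

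Symbols and positions were taken from RefSeq (GRCm38.p6), with 93.0% of gene IDs and 99.2% of transcript IDs matched. Base means were summed over the transcripts of a symbol. Ratios were log2((p8 + 1) / (other + 1)) minus the median over genes with a mean level of at least 10, called past a fold of 2. Levels per kb used the union of exons of GENCODE M21. The ratio formula was run on simulated pools that shared no sample and had even depth. The pools here differ from that setting, so this run does not check the calls. Single-read values are low Base means shared by at least 10 genes that are no sum of smaller such values.

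The genes, lists and pairs were chosen with earlier results of these data known. All 42 genes are named, and of other presynaptic genes the 6 with the highest mean level past the fold in both comparisons, of which 1 is not reported here. Alternatives were other scalings, pseudocounts, filters, a fold of 4, the highest transcript and other lengths. Depth per sample is not known beyond the single-read values. Python 3.11.15, numpy 2.4.6, pandas 2.3.3 and matplotlib 3.10.9 were used.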

Additional observations from a re-analysis of the deposited data

How the results depend on the processing

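No paired analysis was possible because the deposited tables hold no value per sample, and for the same reason no replicate could be left out. Against the mixed pool, the count of 26 lower release genes stayed within 1.5 times under every alternative run. The count of 4 higher genes became 2 on the share of the summed levels, 2 without a filter and 0 at a fold of 4. At that fold 3.21% of all genes tested were higher. The share of the summed levels subtracted -0.31 in place of -0.82 from each log2 ratio, and 6.83% of all genes tested were then higher and 36.0% lower. Against the e12.5 pool over all symbols, the 20 lower genes became 13, and the 13 higher genes 3, when only symbols with 1 transcript were kept, an alternative chosen after seeing the data, and the higher genes became 7 at a mean level of at least 100. The 10 pairs with an over 2-fold higher ratio were 10 under each length. Over the mixed pool 245 of 252 alternative ratios of single genes moved by less than 1.5-fold, and over the e12.5 pool 129 of 154, where 22 of the 25 that moved further did so without the filter, which subtracted -0.22 in place of -1.26, with no called ratio changing sign. Of 72 alternative pair ratios, 34 moved by less than 1.5-fold and 37 by more, and 1 called ratio changed sign, Rab3c over Rab3a in the mixed pool, which was 0.99 on the log2 scale when not divided by length. The share of summed levels without oligodendrocyte genes was also tried.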
